A study of Mus musculus with 8 samples.

Results

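The genes described here are 10 genes of endothelin, nitric oxide and angiotensin signaling, the pathways by which vessel walls set their tone: Edn1, Ece1, Ednra, Ednrb, Ace, Agtr1a, Nos3, Gucy1a3, Gucy1b3 and Npr3. They were chosen by symbol, and all 10 were found among the 22520 genes of the mRNA-seq table. The libraries came from C57BL/6 mice at postnatal day 14 and are labelled a mix of microvesicular cells from heart, liver and lung. The study's text instead describes ECs of liver and ECs of heart and lung as separate preparations, so the organ makeup of each library is uncertain, and differences between organs and between replicates cannot be told apart. There were 4 wild-type (WT) libraries and 4 LRP1 knockout (LRP1 KO) libraries, and the question was which genes change in endothelial cells (ECs) that lack the endocytic receptor LRP1. By the study's methods, the LRP1 KO mice were LRP1 f/f with Cdh5-CreER+/- and the WT littermates were LRP1 f/f with Cdh5-CreER-/-, so both groups carried the floxed alleles and LRP1 KO alone carried the inducible Cre, driven by the promoter of the endothelial cadherin Cdh5. ECs were selected with beads against PECAM-1, an EC surface protein, and a Cre of this kind is meant to delete Lrp1 in ECs and not in other cells that pass the selection. It is not stated whether the libraries came from separate mice, so p-values measure the spread between these libraries, which may be technical.

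Endothelin-1 is a peptide that ECs release as an inactive precursor, which the membrane protease ECE1 cuts into the active form. The peptide constricts vessels through the receptor EDNRA on smooth muscle, while EDNRB on ECs releases nitric oxide and clears the peptide. In the angiotensin branch, ACE makes angiotensin II, which acts on the type 1 receptor encoded in rodents by Agtr1a and Agtr1b. Nitric oxide is made in ECs by NOS3 and is sensed by soluble guanylyl cyclase, a heterodimer of the GUCY1A3 and GUCY1B3 proteins that makes the relaxing messenger cGMP. Natriuretic peptides raise cGMP through receptors of their own, and NPR3 removes these peptides.

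Values are FPKM, that is, sequenced fragments divided by transcript length and by the total mapped in a library, so levels of different genes can be compared per length. Differences are LRP1 KO minus WT on the log2(FPKM + 1) scale, tested with limma over 11389 genes that had at least 1 FPKM in at least 4 libraries. A gene was called at a Benjamini-Hochberg adjusted p under 0.05, which 13.6% of the tested genes reached in either direction, 6.27% higher and 7.31% lower in LRP1 KO. The lowest p that the exact two-sided permutation test can give for 4 libraries against 4 is 0.0286. The sequencing depth is unknown, because the deposited columns had been brought to 1 common distribution, with sums of 503571 to 504112 per library. The targeted gene was examined first. Lrp1 stood at 113, 140, 103 and 124 FPKM in the WT group (libraries 1 to 4) and 3.45, 5.20, 2.79 and 7.72 FPKM in the LRP1 KO group. It fell by 4.45 on the log2 scale (SE 0.23, limma adjusted p 8.89e-05), so every library matched its label.

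The makeup of the libraries is given first, since it moved with several of the results. The levels of 16 endothelial markers summed to 168 to 187 FPKM in WT, and to 673, 403, 483 and 174 FPKM in LRP1 KO libraries 1 to 4. All 15 tested endothelial markers had a positive difference, with a median of 0.90, and 1 was called. Pecam1, the gene of the selecting protein, ranged from 6.80 to 8.76 FPKM in WT, and LRP1 KO libraries 1 to 4 held 36.3, 18.5, 26.2 and 6.72 FPKM of it. Fibroblast markers, which the selection should remove, summed to 2415 to 3610 FPKM in WT and 1998 to 3203 FPKM in LRP1 KO. All 10 had a negative difference, with a median of -0.30, and 2 were called, Pdgfra (-0.96) and Dpt (-2.01). Most of the sum was Col1a1, Col1a2, Col3a1 and Dcn, with LRP1 KO means at 94.3%, 83.5%, 97.7% and 72.7% of WT. Pdgfra stood at 53.0%, Dpt at 29.2% and Fbln1 at 51.7% of WT, and Lum, Tcf21 and Mfap5 at 81.0% to 92.1%. The fibroblast sum was 13.3 to 19.5 times the endothelial sum in WT and 2.97 to 18.4 times in LRP1 KO. The 10 mural markers, of smooth muscle and pericytes, summed to 630 to 797 FPKM in WT and 983 to 1560 FPKM in LRP1 KO, with 3 of 7 tested called higher and a median of 0.88. The contractile genes Acta2 and Tagln made up 85.9% to 96.0% of this sum. Of the mural genes associated with pericytes, none was called: Pdgfrb had a difference of -0.31, Cspg4 of 0.29 and Notch3 of 0.40, and Rgs5, Abcc9 and Kcnj8 were too low to test. Macrophage markers summed to 55.4 to 95.6 FPKM in WT and 221 to 539 FPKM in LRP1 KO, with 7 of 9 called higher. Lymphatic endothelial markers summed to 13.8 to 23.2 FPKM in WT and 12.5 to 53.4 FPKM in LRP1 KO, with none of 2 tested called by limma. The cardiomyocyte list summed to 96.1 to 152 FPKM in WT and 82.9 to 112 FPKM in LRP1 KO, almost all of it Tnnt2, with none of 1 tested called. The hepatocyte list stayed at or under 1.605 FPKM with Alb near 0, and the lung epithelium list stayed at or under 6.81 FPKM with Sftpc at or under 0.181 FPKM and 1 of 2 tested called lower. LRP1 KO library 4 was the 1 LRP1 KO library whose endothelial sum lay in the WT range. It was not an outlier of its group by Dixon's criterion, since its gap to the next library was 0.459 of the range of the 4, under the critical value, and its macrophage sum, 480 FPKM, was above WT like those of the others. The difference of each of the 10 genes is therefore also given without LRP1 KO library 4. That library was picked for an endothelial sum like WT, and lay nearest to the WT mean in 7 of the 10 genes. Leaving it out thus enlarges the differences of those genes by construction, and calls gained without it are not separate support. In bulk RNA, fewer cells of a type and less RNA per cell cannot be told apart. Lrp1 was low in every LRP1 KO library. In library 4 it was at 7.72 FPKM, where the fibroblast sum was 3203 FPKM and the endothelial sum 174 FPKM. Which cells had lost Lrp1 was not tested.

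Of the 10 genes, 9 reached the level needed for testing and Nos3 did not. Of these, 3 (33.3%) were called, against 13.6% of all tested genes: Ece1 and Gucy1b3 were higher and Agtr1a was lower in LRP1 KO. None of the 3 passed a further limit of an absolute log2 difference of 1, which 1.62% of all tested genes passed. The median difference over the 9 genes was 0.07, and that over all tested genes was -0.01. The groups did not overlap in the 3 called genes, against 19.6% of all tested genes, and they overlapped in the others. Without LRP1 KO library 4, 6 of the 9 were called, with Ednrb added to the higher and Ednra and Ace to the lower genes, but the share called over all tested genes also grew, to 26.5%.

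**Figure D1:**
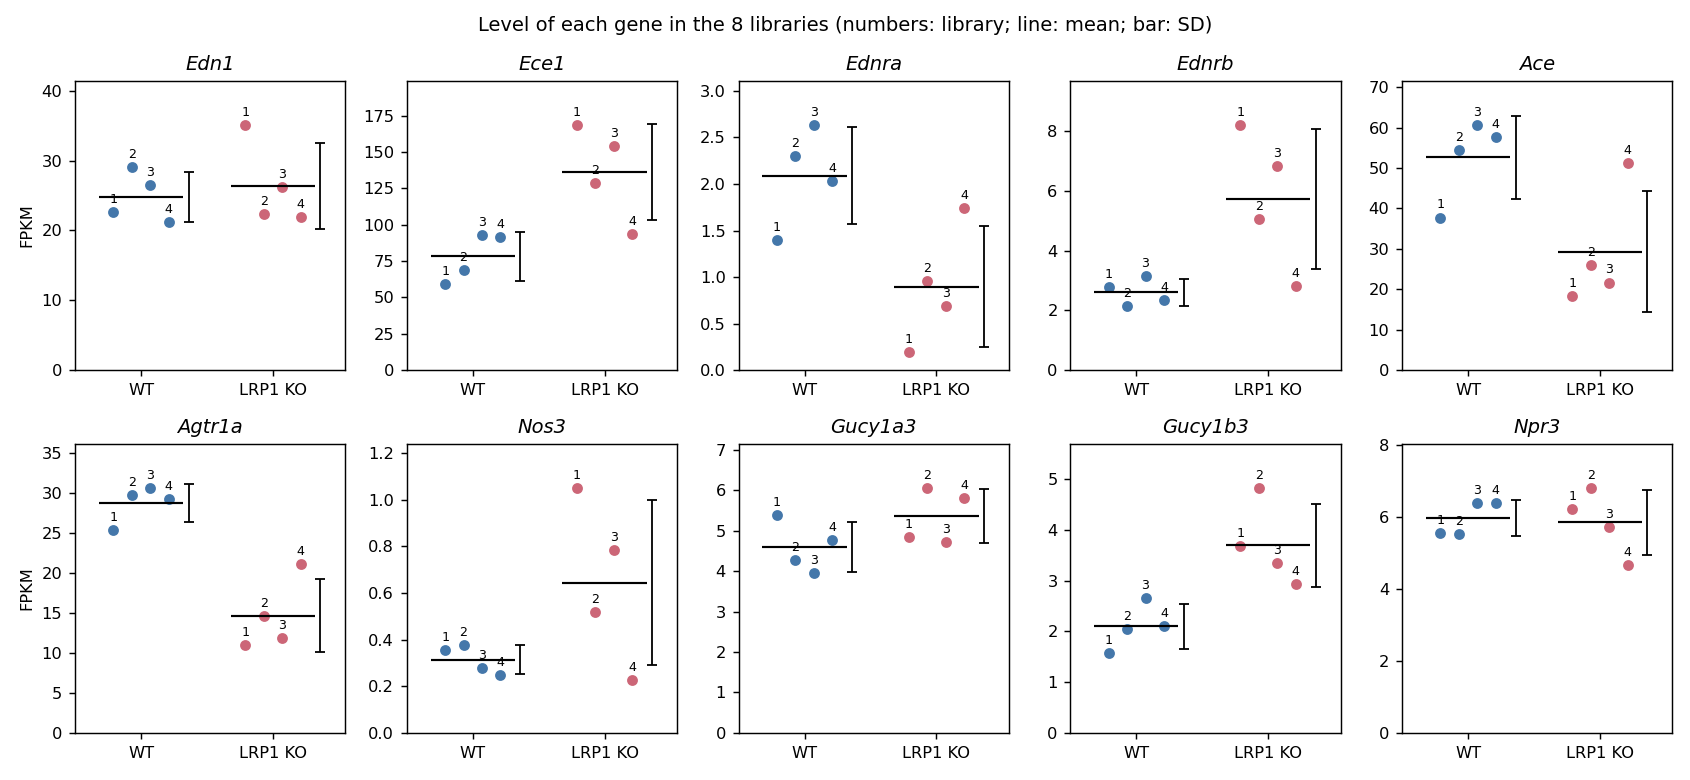
Level of each of the 10 genes in FPKM (vertical axis, from 0, with its own scale in each panel) in the 4 WT and 4 LRP1 KO libraries, numbered, with the group mean as a line and the SD as a bar. The 4 LRP1 KO points lie above all WT points for Ece1 and Gucy1b3 and below them for Agtr1a, and LRP1 KO library 4 lies nearest to the WT mean in 7 of the 10 panels.

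Upstream sequences are shown for Ece1, Gucy1b3 and Ednrb, the genes with the largest positive differences, where the 250 bases before the start hold no annotated exon. RefSeq starts were found for 8 of the 10 genes, with 13 windows in all, and none for Nos3 and Agtr1a. The sequences are from RefSeq on GRCm38.p6, read 5′ to 3′ on the strand of the gene, and end just before the start. Capitals mark matches on either strand to a CCAAT box (CCAAT, read here as ATTGG on the other strand) and to a GC box (GGGCGG). Ece1 is shown from chr4:137861987-137862236 on the plus strand, Ednrb from chr14:103843702-103843951 on the minus strand, and Gucy1b3 from chr3:82074712-82074961 on the minus strand.
Ece1: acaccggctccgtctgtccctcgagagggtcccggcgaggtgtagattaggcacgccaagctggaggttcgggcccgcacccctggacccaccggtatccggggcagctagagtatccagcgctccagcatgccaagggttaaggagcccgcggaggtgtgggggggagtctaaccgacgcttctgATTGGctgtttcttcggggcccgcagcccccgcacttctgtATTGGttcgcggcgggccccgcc
Ednrb: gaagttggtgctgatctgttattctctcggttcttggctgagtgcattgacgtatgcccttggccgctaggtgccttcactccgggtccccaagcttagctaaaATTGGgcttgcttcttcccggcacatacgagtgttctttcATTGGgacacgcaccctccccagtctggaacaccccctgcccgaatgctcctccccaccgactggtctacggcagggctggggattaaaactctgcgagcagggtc
Gucy1b3: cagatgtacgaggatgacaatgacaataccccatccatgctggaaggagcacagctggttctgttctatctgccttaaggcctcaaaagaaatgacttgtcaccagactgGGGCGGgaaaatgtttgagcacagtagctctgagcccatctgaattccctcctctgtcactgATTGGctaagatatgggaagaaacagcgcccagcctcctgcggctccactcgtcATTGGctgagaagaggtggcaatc

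Each of these windows held 2 CCAAT boxes, where 10.1% of all 32851 RefSeq windows of this length held 2 or more and 33.8% held at least 1. The window of Gucy1b3 also held 1 GC box, which 32.7% of all windows hold. Over the 13 windows of the 10 genes, 7 held a CCAAT box, 5 a GC box and 1, at the first start of Ace, a TATA box (TATAAA, in 12.4% of all windows). The FoxO motif GTAAACA, searched because the study followed FoxO factors, was in 0 of the 13 windows and in 3.17% of all windows. Of the 4 Ece1 windows the first pair overlap and share their CCAAT boxes, and windows 3 and 4 hold none. The CCAAT, GC and TATA motifs were chosen after these windows had been read, and a match is a description of the letters only.

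The ligand of the endothelin branch did not pass the test and its protease rose. Edn1 (ENSMUSG00000021367, chr13:42301476-42307990, plus strand, protein-coding, as are all 10 genes), which encodes endothelin-1, stood at 22.6, 29.0, 26.5 and 21.2 FPKM in the WT group and 35.1, 22.3, 26.2 and 21.9 FPKM in the LRP1 KO group, each time from library 1 to 4. Only LRP1 KO library 1 lay above the WT range, and the others lay inside it. The means were 24.8 ± 3.59 and 26.3 ± 6.13 FPKM (SD, n = 4 each), with a difference of 0.07 (SE 0.15, 95% interval -0.27 to 0.41, limma adjusted p 0.785). That interval leaves room for a change of either sign, and the estimate turned negative without LRP1 KO library 1, at -0.07, and without WT library 4. Leaving out LRP1 KO library 4 gave 0.15. Relative to the endothelial marker sum, Edn1 took values of 125 to 157 FPKM per 1000 FPKM in WT, 52.1 to 55.3 in LRP1 KO libraries 1 to 3 and 125 in LRP1 KO library 4. The first 3 were thus below every WT library on this scale, in which the sum itself was higher in those libraries, and the part of the makeup was not tested.

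Ece1 (ENSMUSG00000057530, chr4:137862237-137965229, plus strand) stood at 59.1, 69.1, 93.1 and 91.7 FPKM in the WT group and 168, 129, 154 and 93.6 FPKM in the LRP1 KO group. It was the most abundant of the 10 genes in both groups. LRP1 KO libraries 1 to 3 lay well above WT, while LRP1 KO library 4 was level with the highest WT library. The mean rose from 78.3 ± 16.9 to 136 ± 32.8 FPKM (SD, n = 4 each), or 1.74-fold, with a difference of 0.78 (SE 0.20, 95% interval 0.33 to 1.23, limma adjusted p 0.0339). The difference grew to 0.95 (limma adjusted p 0.00474) when LRP1 KO library 4 was left out. The call was lost in 7 of 13 alternatives, among them each fit without WT library 1 or 2 or without LRP1 KO library 1, 2 or 3, with limma adjusted p from 0.0768 to 0.0971 in those fits. It was also lost with a replicate block (limma adjusted p 0.0687) and without the filter on low values (0.0714). The endothelial marker sum took the same order over the LRP1 KO libraries as Ece1, and the part of the makeup in this result was not tested. Relative to that sum, Ece1 stood at 326 to 547 FPKM per 1000 FPKM in WT, at 250 to 319 in LRP1 KO libraries 1 to 3 and at 537 in LRP1 KO library 4. On this scale LRP1 KO libraries 1 to 3 were thus below every WT library, opposite to the direction in FPKM, and the sum itself was higher in them.

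The 2 endothelin receptors had means on opposite sides of WT, and neither passed the test with all libraries. Ednrb (ENSMUSG00000022122, chr14:103814625-103844402, minus strand) stood at 2.80, 2.15, 3.15 and 2.35 FPKM in the WT group and 8.20, 5.05, 6.84 and 2.81 FPKM in the LRP1 KO group. LRP1 KO libraries 1 to 3 were above every WT library, and LRP1 KO library 4 was inside the WT range. The means were 2.61 ± 0.448 and 5.73 ± 2.33 FPKM (SD, n = 4 each), a ratio of 2.19, with a difference of 0.83 (SE 0.24, 95% interval 0.29 to 1.37) that just missed the threshold at a limma adjusted p of 0.0506. It passed in 4 of 13 alternatives: without LRP1 KO library 4, at 1.08 (limma adjusted p 0.00195), with a pseudocount of 0.1 (0.0494), after rescaling (0.0483) and with a replicate block (0.0426). Over the 13 alternatives the limma adjusted p ran from 0.00195 to 0.136. Relative to the endothelial marker sum, Ednrb stood at 11.6 to 16.9 FPKM per 1000 FPKM in WT and at 12.2 to 16.1 in LRP1 KO, so the groups overlapped on that scale.

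Ednra (ENSMUSG00000031616, chr8:77663031-77724464, minus strand) stood at 1.40, 2.30, 2.63 and 2.03 FPKM in the WT group and 0.197, 0.959, 0.685 and 1.75 FPKM in the LRP1 KO group. LRP1 KO libraries 1 to 3 were below every WT library, and LRP1 KO library 4 was again inside the WT range. The means were 2.09 ± 0.524 and 0.897 ± 0.648 FPKM (SD, n = 4 each), the second at 42.9% of the first. The difference of -0.75 (SE 0.23, 95% interval -1.28 to -0.22) did not pass, at a limma adjusted p of 0.0613. With LRP1 KO library 4 left out it was -0.95 (limma adjusted p 0.00865, between 0.00865 and 0.148 under the 13 alternatives), and it also passed with a replicate block (0.0491). Per 1000 FPKM of the fibroblast marker sum, most of it collagens and Dcn, Ednra took values of 0.578 to 0.810 FPKM in the WT group. It took 0.0987 to 0.545 FPKM in the LRP1 KO group, without overlap.

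In the angiotensin branch both genes had a lower mean in LRP1 KO, and the receptor passed the test. Agtr1a (ENSMUSG00000049115, chr13:30336441-30382867, plus strand), the type 1 receptor of angiotensin II, stood at 25.3, 29.8, 30.6 and 29.3 FPKM in the WT group and 11.0, 14.6, 11.9 and 21.1 FPKM in the LRP1 KO group. The groups did not overlap, and LRP1 KO library 4 lay nearest to the WT values. The mean fell from 28.7 ± 2.36 to 14.7 ± 4.59 FPKM (SD, n = 4 each), to 51.0% of WT, with a difference of -0.96 (SE 0.17, 95% interval -1.35 to -0.58, limma adjusted p 0.0106). An exact permutation test gave p = 0.0286. Agtr1a was the 1 gene of the 10 that was called under all 13 alternatives, with limma adjusted p from 0.000382 to 0.0389, and without LRP1 KO library 4 the difference was -1.15. Per 1000 FPKM of the fibroblast sum, most of it collagens and Dcn, Agtr1a took values of 8.25 to 10.5 FPKM in the WT group. It took 4.98 to 6.60 FPKM in the LRP1 KO group, again without overlap. Only 33 of the 2150 stretches of 50 bases in its transcript also occur in transcripts of Agtr1b, its paralog, which was at 0.145 to 0.691 FPKM over the 8 libraries.

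Ace (ENSMUSG00000020681, chr11:105967945-105989964, plus strand), which cleaves angiotensin I to angiotensin II and also breaks down bradykinin, stood at 37.8, 54.5, 60.6 and 57.6 FPKM in the WT group and 18.4, 25.9, 21.7 and 51.3 FPKM in the LRP1 KO group. LRP1 KO libraries 1 to 3 were below every WT library, and library 4 lay among the WT values. The means were 52.6 ± 10.2 and 29.3 ± 14.9 FPKM (SD, n = 4 each), the second at 55.7% of the first. The difference of -0.91 (SE 0.28, 95% interval -1.55 to -0.28) did not pass, at a limma adjusted p of 0.0605. With LRP1 KO library 4 left out it was -1.21 (limma adjusted p 0.00177, between 0.00177 and 0.156 under the 13 alternatives), and it also passed with a replicate block (0.0429). Per 1000 FPKM of the fibroblast sum, Ace stood at 15.1 to 19.4 FPKM in WT, at 9.09 to 9.84 FPKM in LRP1 KO libraries 1 to 3 and at 16.0 FPKM in LRP1 KO library 4. Values per fibroblast sum depend mostly on Col1a1, Col1a2, Col3a1 and Dcn, which fell less than Pdgfra, Dpt and Fbln1. The part of fibroblasts and of the other cell types in the values of Ednra, Agtr1a and Ace was not tested.

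**Figure D2:**
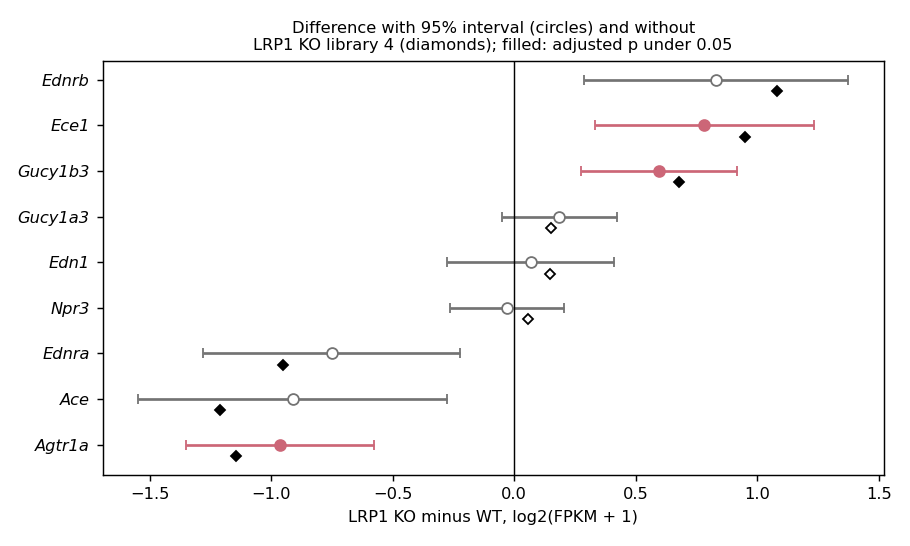
Difference between LRP1 KO and WT on the log2(FPKM + 1) scale (horizontal axis) for the 9 tested genes, with its 95% interval as a bar around the circle and the estimate without LRP1 KO library 4 as a diamond; filled symbols have a limma adjusted p under 0.05. Ece1, Gucy1b3 and Agtr1a are filled with all libraries, and Ednrb, Ace and Ednra also when library 4 is left out. Library 4 was picked for an endothelial sum in the WT range, and leaving it out enlarges most of these differences.

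On the nitric oxide side, the synthase was too low for the main test and 1 subunit of its target enzyme rose. Nos3 (ENSMUSG00000028978, chr5:24364810-24384474, plus strand), the endothelial nitric oxide synthase, stood at 0.357, 0.375, 0.278 and 0.247 FPKM in the WT group and 1.05, 0.518, 0.783 and 0.228 FPKM in the LRP1 KO group. LRP1 KO libraries 1 to 3 were above the WT range and library 4 was below it. The means were 0.314 ± 0.0615 and 0.645 ± 0.353 FPKM (SD, n = 4 each), a ratio of 2.05. An exact permutation test gave p = 0.171 for a difference of 0.30. That value depends on the pseudocount and was 0.71 with a pseudocount of 0.1, and with LRP1 KO library 4 left out it was 0.43. Per 1000 FPKM of the endothelial sum, Nos3 took values of 1.47 to 2.03 FPKM in the WT group and 1.28 to 1.62 FPKM in the LRP1 KO group, with overlap. Exons of Nos3 overlap those of Atg9b on the opposite strand, which was at 0.0497 to 0.254 FPKM, and whether strand was used in counting is not stated. Exons of Edn1, Ednra, Ace and Npr3 overlap noncoding genes on the opposite strand as well.

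Gucy1b3 (ENSMUSG00000028005, now Gucy1b1, chr3:82032006-82074689, minus strand), the beta subunit of soluble guanylyl cyclase, stood at 1.57, 2.04, 2.66 and 2.11 FPKM in the WT group and 3.67, 4.83, 3.34 and 2.93 FPKM in the LRP1 KO group. The groups did not overlap, and the smallest gap was between LRP1 KO library 4 and WT library 3. The mean rose from 2.10 ± 0.447 to 3.69 ± 0.815 FPKM (SD, n = 4 each), or 1.76-fold, with a difference of 0.60 (SE 0.14, 95% interval 0.28 to 0.92, limma adjusted p 0.0283). Without LRP1 KO library 4 the difference was 0.68 (limma adjusted p 0.0102), but the call was lost in 8 of 13 alternatives, among them each fit without WT library 1, 2 or 4 or without LRP1 KO library 1, 2 or 3, at limma adjusted p from 0.0557 to 0.0775. A replicate block (limma adjusted p 0.0542) and no filter on low values (0.0575) also ended the call of Gucy1b3. Per 1000 FPKM of the mural marker sum, most of it Acta2 and Tagln, Gucy1b3 took values of 2.09 to 3.34 FPKM in the WT group and 2.24 to 3.68 FPKM in the LRP1 KO group, with overlap, and the part of the cells that express Acta2 and Tagln was not tested.

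Gucy1a3 (ENSMUSG00000033910, now Gucy1a1, chr3:82092427-82145789, minus strand), the alpha subunit, lies upstream of Gucy1b3 on the same strand, with 17737 bases between its end and the start of Gucy1b3. It stood at 5.39, 4.26, 3.96 and 4.77 FPKM in the WT group and 4.85, 6.06, 4.72 and 5.80 FPKM in the LRP1 KO group, and the groups overlapped. The means were 4.59 ± 0.625 and 5.36 ± 0.672 FPKM (SD, n = 4 each), with a difference of 0.19 (SE 0.11, 95% interval -0.05 to 0.42, limma adjusted p 0.242). Its interval overlaps that of Gucy1b3, and the difference between the subunits was not tested. The value for Gucy1a3 was 0.15 without LRP1 KO library 4.

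Npr3 (ENSMUSG00000022206, chr15:11839896-11907287, minus strand), the clearance receptor of natriuretic peptides, stood at 5.55, 5.52, 6.39 and 6.40 FPKM in the WT group and 6.21, 6.81, 5.71 and 4.68 FPKM in the LRP1 KO group. LRP1 KO library 2 was the highest and library 4 the lowest of the 8. The means were 5.97 ± 0.496 and 5.85 ± 0.903 FPKM (SD, n = 4 each), with a difference of -0.03 (SE 0.10, 95% interval -0.27 to 0.20, limma adjusted p 0.863), and its sign turned without LRP1 KO library 4, at 0.06. The interval of Npr3 was, with that of Gucy1a3, among the narrowest of the 9 genes.

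In WT the order of the mean levels was Ece1, Ace, Agtr1a, Edn1, Npr3, Gucy1a3, Ednrb, Gucy1b3, Ednra and Nos3. The ranges of Ece1 and Ace overlapped, as did those of Agtr1a and Edn1, and of Ednrb, Gucy1b3 and Ednra, so these neighbours were not separated by the spread between libraries. In LRP1 KO the order was Ece1, Ace, Edn1, Agtr1a, Npr3, Ednrb, Gucy1a3, Gucy1b3, Ednra and Nos3. Ece1 there stood clear of Ace, and Agtr1a clear below Edn1. Ace overlapped with Edn1, Ednrb with Npr3 and Gucy1a3, Gucy1a3 with Gucy1b3, and Ednra with Nos3. With library 4 left out, the LRP1 KO mean of Edn1 was above that of Ace, Ednrb above Npr3, and Nos3 above Ednra.

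The balance between partner genes was followed within each library, for 4 pairs chosen after their values were seen and therefore without a test. The ratio of Ednra to Ednrb was 0.499, 1.07, 0.837 and 0.864 in WT libraries 1 to 4 and 0.0241, 0.190, 0.1001 and 0.621 in LRP1 KO libraries 1 to 4. The constricting receptor was thus near the level of the other receptor in WT and far below it in LRP1 KO libraries 1 to 3, while library 4 lay in the WT range. The ratio of Ece1 to Edn1 was 2.38 to 4.34 in WT and 4.28 to 5.88 in LRP1 KO, and that of Gucy1a3 to Gucy1b3 was 1.48 to 3.42 in WT and 1.26 to 1.98 in LRP1 KO. The ratio of Ace to Agtr1a was 1.49 to 1.98 in WT and 1.68 to 2.43 in LRP1 KO. All 4 pairs overlapped between the groups.

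**Figure D3:**
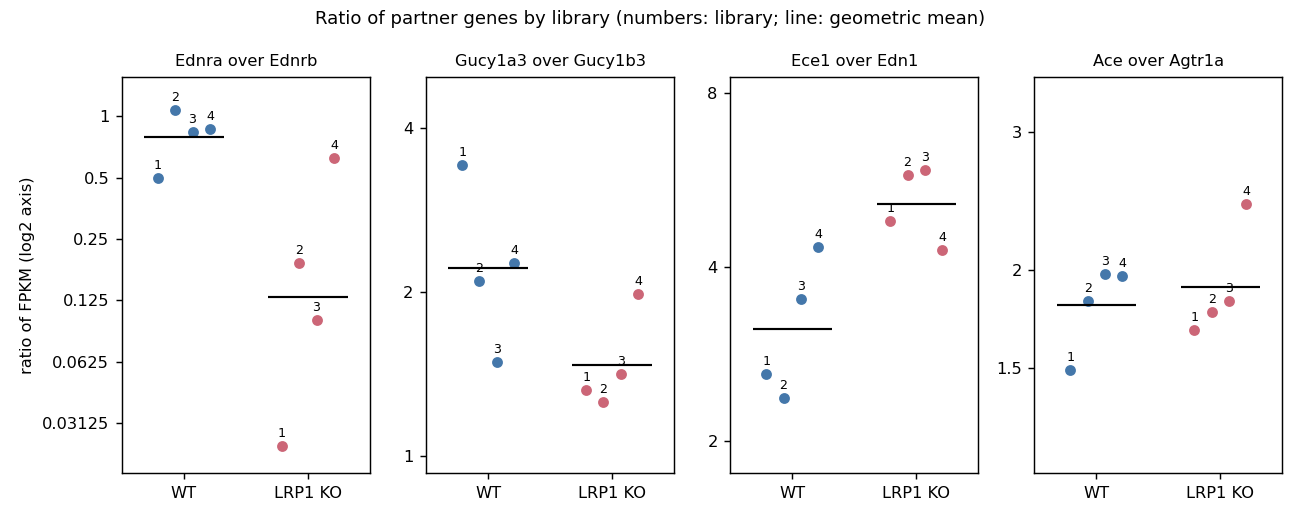
Ratio of the FPKM of partner genes in each library (vertical log2 axis), with library numbers and the geometric mean of each group as a line. The geometric mean of Ednra over Ednrb is 0.789 in WT and 0.130 in LRP1 KO, that of Ace over Agtr1a 1.81 and 1.90, and the groups overlap in every panel.

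Among the LRP1 KO libraries the genes took a few recurrent orders. Nos3, Edn1, Ednrb and Ece1 were highest in library 1, followed by 3, 2 and 4, which was also the order of the endothelial, mural and lymphatic endothelial sums. Ednra, Ace and Agtr1a took the opposite order, with library 4 highest, as did the fibroblast sum. Gucy1a3 followed the order of the macrophage sum, with libraries 2, 4, 1 and 3 from high to low. The hepatocyte list, at or under 1.605 FPKM, had that same order. Gucy1b3 and Npr3 shared the order 2, 1, 3 and 4, which was that of none of the marker sums. Lrp1 itself was also highest in library 4, at 7.72 FPKM. These orders are over 4 libraries and are given as a description.

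**Figure D4:**
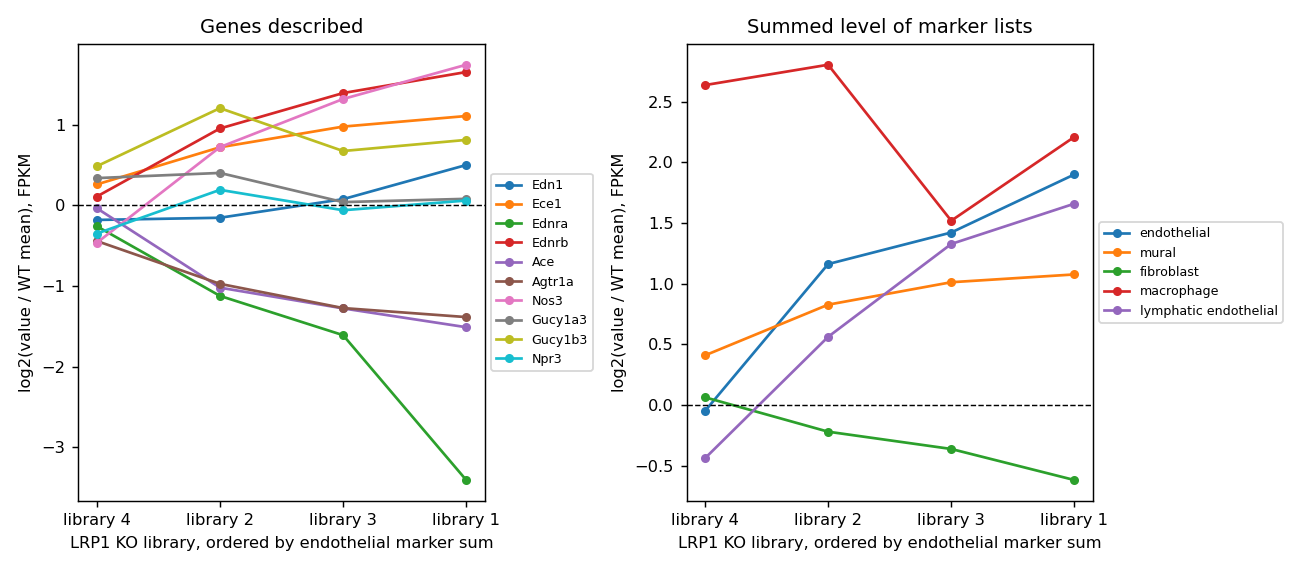
Level in each LRP1 KO library relative to the WT mean, as log2 of the ratio of FPKM (vertical axis), for the 10 genes (left) and the summed levels of 5 marker lists (right), with libraries ordered along the horizontal axis by their endothelial marker sum. Nos3, Edn1, Ednrb and Ece1 are highest in library 1, as are the endothelial, mural and lymphatic endothelial sums, while Ednra, Ace, Agtr1a and the fibroblast sum are highest in library 4.

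The genes whose values ran most like those of a member over the 8 libraries were found by the root mean square difference of log2 values after subtracting each WT mean. For Agtr1a these were Mgat3 (0.0857), Adamts15 (0.0942) and Cxadr (0.114), and Adamts15 and Cxadr were also among the nearest to Ace, at 0.166 and 0.161. Ece1 ran nearest to Ghr (0.0723), Usp53 and Csf1, Ednra to Dkk3 (0.0950), Dio3 and Rassf2, and Ednrb to Arap3 (0.126), Sntg1 and Parvb. Gucy1b3 ran nearest to Gpr137b (0.0858), Fstl3 and Pgk1.

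The other genes of these pathways were taken from a list of 41, all of them in the table and 26 of them tested. Of the 26, 3 were called higher and 4 lower in LRP1 KO, or 26.9% against 13.6% of all tested genes, and the median difference was 0.05. Without LRP1 KO library 4 it was 10 of the 26, against 26.5% of all. By role, 1 of 2 tested endothelin genes, 2 of 4 angiotensin and kinin genes, 2 of 10 genes of nitric oxide and its supply, 1 of 3 natriuretic peptide genes and 1 of 7 cGMP genes were called, and no role was tested as a group.

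Of the 10 tested genes of nitric oxide and its supply, 2 rose, none fell, and 4 had negative differences. Ass1, which rebuilds arginine from citrulline, stood at 69.4 to 80.1 FPKM in the WT group and 145, 121, 143 and 98.2 FPKM in the LRP1 KO group, with a difference of 0.74 (SE 0.12, limma adjusted p 0.00699). Ddah1, which breaks down an inhibitor of nitric oxide synthases, stood at 10.6, 8.10, 12.8 and 14.2 FPKM in the WT group and 27.9, 24.0, 26.0 and 14.5 FPKM in the LRP1 KO group, with a difference of 0.94 (SE 0.21, limma adjusted p 0.0239). Asl, which acts after Ass1 in rebuilding arginine and was named after its values were seen, stood at 20.6 to 28.4 FPKM in the WT group and 19.6 to 23.0 FPKM in the LRP1 KO group and did not pass (difference -0.24, limma adjusted p 0.134), although without WT library 3 it did (-0.33, limma adjusted p 0.0487). The paralog of Ddah1, Ddah2, named after its values were seen, was below WT in every LRP1 KO library, at 26.0 to 31.0 FPKM against 31.1 to 45.0 FPKM, and did not pass (difference -0.31, limma adjusted p 0.0911). Cav1, a membrane protein that holds NOS3 inactive, was the most abundant of this role, at 157 to 257 FPKM in WT and 221 to 469 FPKM in LRP1 KO (difference 0.74, limma adjusted p 0.0694). Without LRP1 KO library 4 the differences were 0.86 for Ass1, 1.14 for Ddah1, -0.26 for Asl, -0.35 for Ddah2 and 0.95 for Cav1, and Cav1 then passed (limma adjusted p 0.00721). Nos1 and Nos2, the other nitric oxide synthases, were near 0 in all libraries.

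In the endothelin role, Ece2, a second endothelin-converting enzyme, stood at 7.32 to 9.19 FPKM in the WT group and 9.64 to 12.0 FPKM in the LRP1 KO group, with a difference of 0.38 (SE 0.09, limma adjusted p 0.0234). It was well below Ece1 in every library. Edn2 and Edn3, the other endothelin ligands, stayed at or under 0.229 FPKM.

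In the angiotensin role, Agt, the precursor of the angiotensins, fell most, from 2.92, 4.10, 3.53 and 3.40 FPKM in the WT group to 0.409, 0.982, 0.989 and 1.43 FPKM in the LRP1 KO group (difference -1.22, SE 0.16, limma adjusted p 0.00289), and no value overlapped. Agtrap, which binds the type 1 receptor and promotes its internalization, fell by 0.37 (SE 0.09, limma adjusted p 0.0296), from 19.9 to 24.3 FPKM in WT to 14.5 to 18.4 FPKM in LRP1 KO. Atp6ap2, the prorenin receptor and the most abundant gene of this role, stood at 51.1 to 54.5 FPKM in the WT group and 55.9 to 60.8 FPKM in the LRP1 KO group (difference 0.15, limma adjusted p 0.0636), and passed after rescaling (0.0465) and without the filter on low values (0.0484). Renin itself (Ren1) was listed at 0 in 7 of the 8 libraries. The difference for Agt was -1.34 without LRP1 KO library 4.

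Among the natriuretic peptide and cGMP genes of this wider list, the called genes, Npr1 and Pde5a, fell. Npr1, the guanylyl cyclase receptor of atrial natriuretic peptide, stood at 18.1 to 27.1 FPKM in the WT group and 13.3 to 19.5 FPKM in the LRP1 KO group (difference -0.57, SE 0.14, limma adjusted p 0.0307), with overlap through LRP1 KO library 4. Pde5a, which breaks down cGMP, stood at 2.50 to 3.71 FPKM in the WT group and 1.47 to 2.43 FPKM in the LRP1 KO group (difference -0.54, SE 0.13, limma adjusted p 0.0284). Vasp, a substrate of the cGMP-dependent kinase and the most abundant of the cGMP genes, stood at 48.5 to 53.1 FPKM in the WT group and 49.3 to 55.3 FPKM in the LRP1 KO group (difference 0.03, 95% interval -0.10 to 0.15, limma adjusted p 0.771). Nppb, the precursor of brain natriuretic peptide, which was named after its values were seen, was too low to test, at 0.0484 to 0.292 FPKM in WT and 0.374 to 0.888 FPKM in LRP1 KO, without overlap, a pattern for which it was picked and which is therefore given with no test. Of the 7 called genes of the list, Agt and Ass1 were called under all 13 alternatives, and the other 5 each lost their call in 6 or 7 of the 13. Each of these 5, Ddah1, Ece2, Agtrap, Npr1 and Pde5a, lost it without WT library 2 or without LRP1 KO library 1, 2 or 3, and all but Pde5a also without WT library 1. Agtrap, Ece2 and Pde5a lost it without WT library 3, and Npr1 without WT library 4. With a replicate block, Ddah1 (limma adjusted p 0.0545) and Ece2 (0.0595) also lost it. The highest limma adjusted p of the 5 lay between 0.0686 and 0.0888. With LRP1 KO library 4 left out, all 7 were called, at 0.43 for Ece2, -0.42 for Agtrap, -0.68 for Npr1 and -0.64 for Pde5a, while Atp6ap2 (0.15) and Vasp (0.04) were not. The cell type markers moved with these genes too, and their part was not tested.

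**Figure D5:**
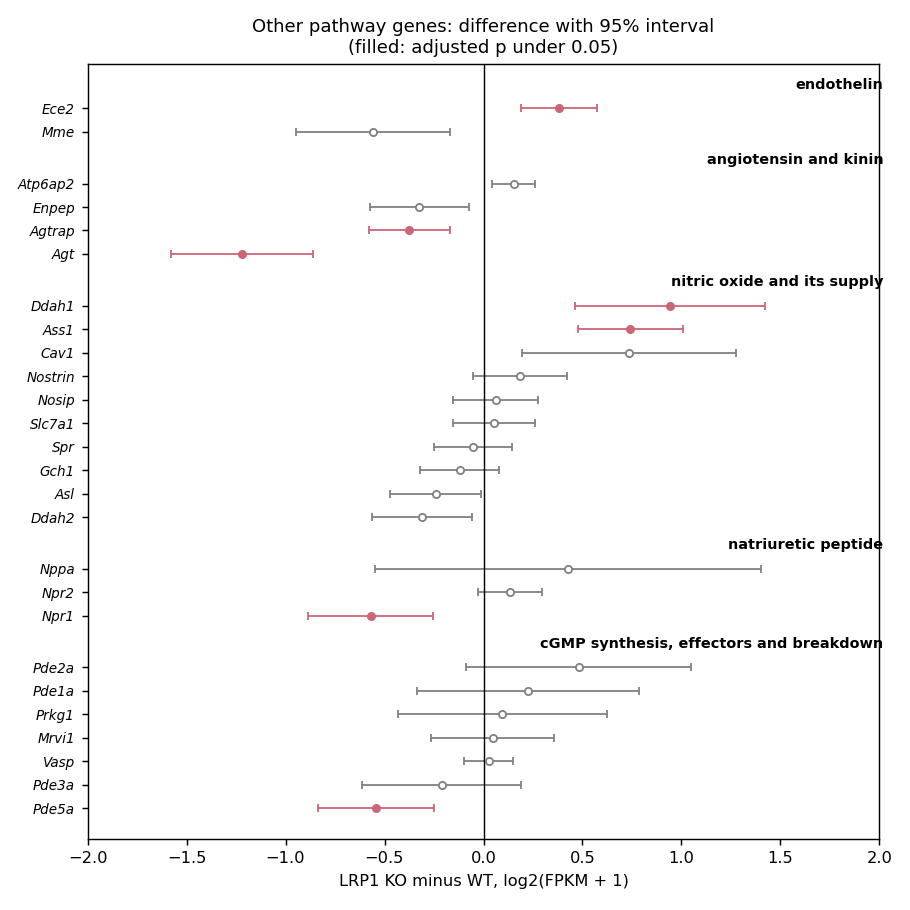
Difference between LRP1 KO and WT on the log2(FPKM + 1) scale (horizontal axis) for the 26 tested genes of the wider pathway list, grouped by role, with 95% intervals as bars; filled circles have a limma adjusted p under 0.05. Ece2, Ddah1 and Ass1 are filled to the right of 0 and Agtrap, Agt, Npr1 and Pde5a to the left.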

How the data were processed

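Gene expression was measured by mRNA-seq in 4 WT and 4 LRP1 KO libraries, grouped by the sample titles. The deposited values are FPKM, inferred from their scale: they are not whole numbers, carry a correction for transcript length and share 1 distribution, so the authors had quantile normalized them across the 8 libraries. This removes the sequencing depth, and no counting error could be computed. The submitters' processing notes name TopHat2, Cufflinks and the build mm10, whereas the study's methods describe STAR, featureCounts with GENCODE and edgeR; which of these made the table is not given in the sources used here. Because the values are not counts, limma 3.58.1 in R 4.3.3 was used in place of a count test, on log2(FPKM + 1) with variances that follow the mean level, for genes of at least 1 FPKM in at least 4 libraries (11389 of 22520). P-values were adjusted over all tested genes (Benjamini-Hochberg), and exact two-sided permutation tests used all 70 arrangements of the libraries. Coordinates are from GENCODE M21 on GRCm38. Replicate numbers were checked as pairs: same-numbered libraries had correlations of 0.158, 0.141, 0.340 and -0.312 of their deviations from the group means, so they were not treated as pairs.

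The members and gene lists were chosen with earlier results of these data known. The text names all 10 members, every called gene and the most abundant gene of each role from the wider list, the 3 genes most like each tested member that spans at least 1 log2 unit, and single markers where needed. Asl, Ddah2, Nppb, the low genes Agtr1b, Edn2, Edn3, Nos1, Nos2 and Ren1, and Atg9b, which overlaps Nos3, fall outside this rule and were named after their values were seen. Alternatives were a pseudocount of 0.1, no filter on low values, rescaled libraries, a replicate block, a variance prior without a trend, and each library left out in turn.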

Additional observations from a re-analysis of the deposited data

How the results depend on the processing

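Over 13 alternatives each, Agtr1a, Agt and Ass1 kept their call and direction, and Edn1, Gucy1a3, Npr3, Ddah2 and Vasp were called in none. The number of called members, 3 with all libraries, was 4 with a pseudocount of 0.1, 4 after rescaling, 1 without the filter on low values, where more genes were tested, and from 1 to 6 when 1 library was left out. It was 1 (Agtr1a) without WT library 1 or 2 or without LRP1 KO library 1, 2 or 3, and 6 without LRP1 KO library 4. The called genes of the wider list, 7 with all libraries, numbered 8 after rescaling, 6 without the filter on low values and 2 to 10 when 1 library was left out, with 2 without WT library 2 or LRP1 KO library 1, 2 or 3, 4 without WT library 1 and 10 without LRP1 KO library 4. Called cell type markers, 14 of 46 tested with all libraries, numbered 10 to 34, the highest without LRP1 KO library 4. Called genes over the whole table, 1547 with all libraries, numbered 512 to 3021, lowest without WT library 2 and highest without LRP1 KO library 4, with 714 higher and 833 lower as deposited and 825 higher and 743 lower after rescaling. The cause of these changes was not tested.

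A replicate block left 1013 genes called over the whole table. With the block, 4 members were called: Ednrb (limma adjusted p 0.0426), Ace (0.0429), Ednra (0.0491) and Agtr1a (0.0185), while Ece1 (0.0687) and Gucy1b3 (0.0542) were not. Of the wider list, 5 genes were called with it, 1 higher and 4 lower, without Ddah1 and Ece2. The libraries share only a number. LRP1 KO libraries 1, 2 and 3 deviated most like the WT library of their own number, and LRP1 KO library 4 did not (-0.312). The lead was small for library 2 (0.141 against 0.112 with WT library 1) and library 3 (0.340 against 0.331 with WT library 4). When 1 library was left out, the difference ranged from -0.0737 (without LRP1 KO library 1) to 0.15 for Edn1, from -0.10 to 0.0564 (without LRP1 KO library 4) for Npr3 and from -0.0024 (without WT library 2) to 0.0557 for Vasp, and that of Edn1 was also negative without WT library 4 (-0.0025), so the signs of these values near 0 turned. Depth could not be judged from these normalized values, so no limit of detection is given for Nos3 and the other genes under 1 FPKM.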
